A study of Mus musculus with 28 samples.

Results

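The genes described here encode the nuclear subunits of the mitochondrial respiratory chain and of ATP synthase. They were chosen by symbol: every row that begins with Ndufa, Ndufb, Ndufc, Ndufs or Ndufv, with Uqcr, with Cox4, Cox5, Cox6, Cox7 or Cox8 (Cox6a2 left out), or with Atp5, together with Sdha, Sdhb, Sdhc and Sdhd. No measured value entered the choice. 91 genes matched in any table, 90 of 21612 gene names in the table of sorted subsets, 89 of 20603 in the table of treated mice and 91 of 27933 in the single-cell table. Classes follow the symbol, so Ndufa4, now counted with complex IV, is placed under complex I. The matches comprise 38 genes named for complex I and 7 complex I assembly factors whose symbols begin with Ndufaf. They also hold 4 genes of complex II, 8 of complex III, 17 of complex IV and 17 of complex V. In each bulk experiment 84 of them had enough counts to be tested. Cox4i2, Cox6b2, Cox7a1, Cox7b2 and Ndufa4l2 did not pass that filter in either experiment, nor did Cox8c, which is listed only for the subsets.

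The cells were CD8+ T cells that had entered MC38-OVA tumours, a mouse colon carcinoma line that carries ovalbumin, in wild type C57BL/6 mice. A first experiment sorted PD-1- cells into naive-like (CD62LhiSlamf7-CX3CR1-, 6 libraries), memory-like (CD62L-Slamf7hiCX3CR1-, 5 libraries) and effector-like cells (CD62L-Slamf7hiCX3CR1+, 3 libraries). In a second experiment, mice received anti-Tim-3 plus anti-PD-1 (blockade) or isotype control antibodies, and Tim-3-PD-1- cells (here DN) and Tim-3+PD-1+ cells (here DP) were sorted 12 days after tumour implantation, with 3 libraries for each of the 4 groups. Treated DN cells were also profiled by droplet single-cell sequencing, with 1 library for each treatment. The library names carry numbers that recur between the DN and DP sorts of a treatment and between the subsets, but the labels do not say whether a number marks a mouse. The p-values therefore speak of the spread among the libraries sequenced, which may be technical. The names of effector-like replicates 1 and 2 list several numbers each and may stand for pooled mice. The name of effector-like replicate 3 bears the number 5, which that of replicate 2 also lists, so these libraries may not be independent. Naive-like libraries bear another date in their names than memory-like and effector-like ones, and in comparisons with naive-like cells date and cell type cannot be told apart.

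Complexes I and II pass electrons from NADH and succinate to ubiquinone, complex III passes them on to cytochrome c and complex IV to oxygen. Complexes I, III and IV pump protons as they do so, and complex V, the ATP synthase, uses the proton gradient to make ATP. Most subunits are encoded in the nucleus and a few, the catalytic cores among them, in mitochondrial DNA. T cells raise both glycolysis and respiration on activation, memory cells are known for their reliance on respiration, and exhausted cells in tumours for impaired mitochondria.

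The promoters of these genes are known for binding sites of the nuclear respiratory factor NRF1, and the members were first compared by the letters before their start sites. RefSeq windows (GRCm38.p6, 250 bases before to 50 after the start) were matched to 73 members, with 1 window per gene. Motifs were searched on both strands. The NRF1 motif, whose letters are the capitals printed below with the sixth base free, was in 18 of the 73 (24.7%), against 1293 of 27025 windows of all genes (4.78%). The motif CCGGAAGT of ETS factors was in 5 members (6.85%, against 4% of all windows) and that of YY1 in 4 (5.48%, against 0.899%). All 4 members with the YY1 motif, Ndufa9, Ndufs4, Ndufs6 and Ndufs7, belong to complex I. TATAAA was in 7 members (9.59%), against 14.2% of all windows. The NRF1 motif was in 7 of 33 complex I windows, 2 of 6 windows of assembly factors, 2 of 3 of complex II, 1 of 5 of complex III, 1 of 13 of complex IV and 5 of 13 of complex V. Below are the 100 bases before the start, 5′ to 3′ on the gene's strand, with NRF1 matches in capitals, of Atp5g2, Ndufa11 and Sdha, which hold the motif, and of Cox5a and Cox7a2l, which do not, and of which Cox5a was called higher and Cox7a2l lower in memory-like against naive-like and in DP against DN isotype cells. They lie at chr15:102671048-102671147 (minus strand), chr17:56717662-56717761 (plus), chr13:74350241-74350340 (minus), chr9:57521132-57521231 (plus) and chr17:83514334-83514433 (minus). A match is a description of the letters and was not tested as a binding site.
Atp5g2: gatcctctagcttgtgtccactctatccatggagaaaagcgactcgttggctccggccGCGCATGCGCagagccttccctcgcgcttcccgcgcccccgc
Ndufa11: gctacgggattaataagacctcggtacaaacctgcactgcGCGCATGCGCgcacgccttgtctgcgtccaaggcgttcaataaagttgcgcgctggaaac
Sdha: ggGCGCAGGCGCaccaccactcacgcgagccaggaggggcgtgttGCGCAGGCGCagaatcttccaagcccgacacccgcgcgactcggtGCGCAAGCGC
Cox5a: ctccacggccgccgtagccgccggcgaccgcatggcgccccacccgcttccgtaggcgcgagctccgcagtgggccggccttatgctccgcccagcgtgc
Cox7a2l: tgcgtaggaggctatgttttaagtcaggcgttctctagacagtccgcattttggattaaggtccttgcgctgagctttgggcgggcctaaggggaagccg
In Atp5g2 the match ends 33 bases before the start and in Ndufa11 51 bases before it, and the window of Sdha holds 3 matches. No sequence of the 3 kinds searched (NRF1, ETS, YY1) is in the windows of Cox5a and Cox7a2l.

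The bulk libraries held 5027112 to 7978200 counts in the subsets and 8005818 to 13579262 in the treated mice. The members took 0.714 to 1.05% and 0.885 to 1.24% of them. Levels are CPM (counts scaled to the library total) and differences are log2 fold changes ± SE of edgeR's quasi-likelihood test. That test scales each library by TMM, so a fold change can differ from the ratio of 2 CPM values. A gene is called where its Benjamini-Hochberg adjusted p over all genes tested is under 0.05. Rn45s, a ribosomal RNA gene, took 17.8 to 20.7% of the counts of naive-like libraries, 12.6 to 17.4% of memory-like, 10.7 to 14.1% of effector-like, 12.6 to 18.1% of DN isotype, 17.7 to 18.8% of DN blockade, 13.3 to 14.5% of DP isotype and 11.4 to 15.0% of DP blockade libraries. Refitted without Rn45s, the count of members called was 12 in place of 10 between memory-like and naive-like cells, 0 in place of 1 for blockade in DN cells, and 31 in place of 32 (isotype) and 43 in place of 46 (blockade) between DP and DN cells. It was the same in the other comparisons. Results are given without memory-like replicate 2 and naive-like replicates 4 and 6, libraries that stood apart from their groups, where this changed a count. In bulk samples, fewer cells of a type and less RNA per cell cannot be told apart.

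The summed level of the members, a description with no test, differed between the sorted populations. It was lowest in naive-like libraries, at 7956 ± 674 CPM (SD, n = 6), and 9666 ± 645 in memory-like (n = 5), 9895 ± 691 in effector-like, 9823 ± 986 in DN isotype, 9812 ± 349 in DN blockade, 11610 ± 303 in DP isotype and 12090 ± 317 in DP blockade cells (n = 3 each). Naive-like libraries ranged from 7138 to 9189 and overlapped with memory-like libraries, from 8953, and effector-like libraries, from 9159. DP libraries began at 11400 and lay above every DN library, the highest of which held 10820. The 2 experiments are held in separate tables, and a level set across them can carry a difference between the experiments as well. CPM is not scaled to transcript length, so the shares that follow are of counts and give no order of level between complexes. Complex V held the largest share, 2563 to 3481 CPM in naive-like and 4311 to 4573 in DP blockade libraries. Complex I held 1618 to 2266 and 3017 to 3150, complex IV 1536 to 1897 and 2551 to 2694, complex III 785 to 907 and 1185 to 1221, and complex II 455 to 558 and 617 to 660. Complex II was the flattest, with 465 to 572 CPM in memory-like and 497 to 585 in DN isotype libraries, both overlapping with naive-like cells. The plot of summed CPM is on library totals. In it complexes I, III, IV and V show 3 levels, naive-like cells, the other DN and PD-1- populations, and DP cells.

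**Figure D1:**
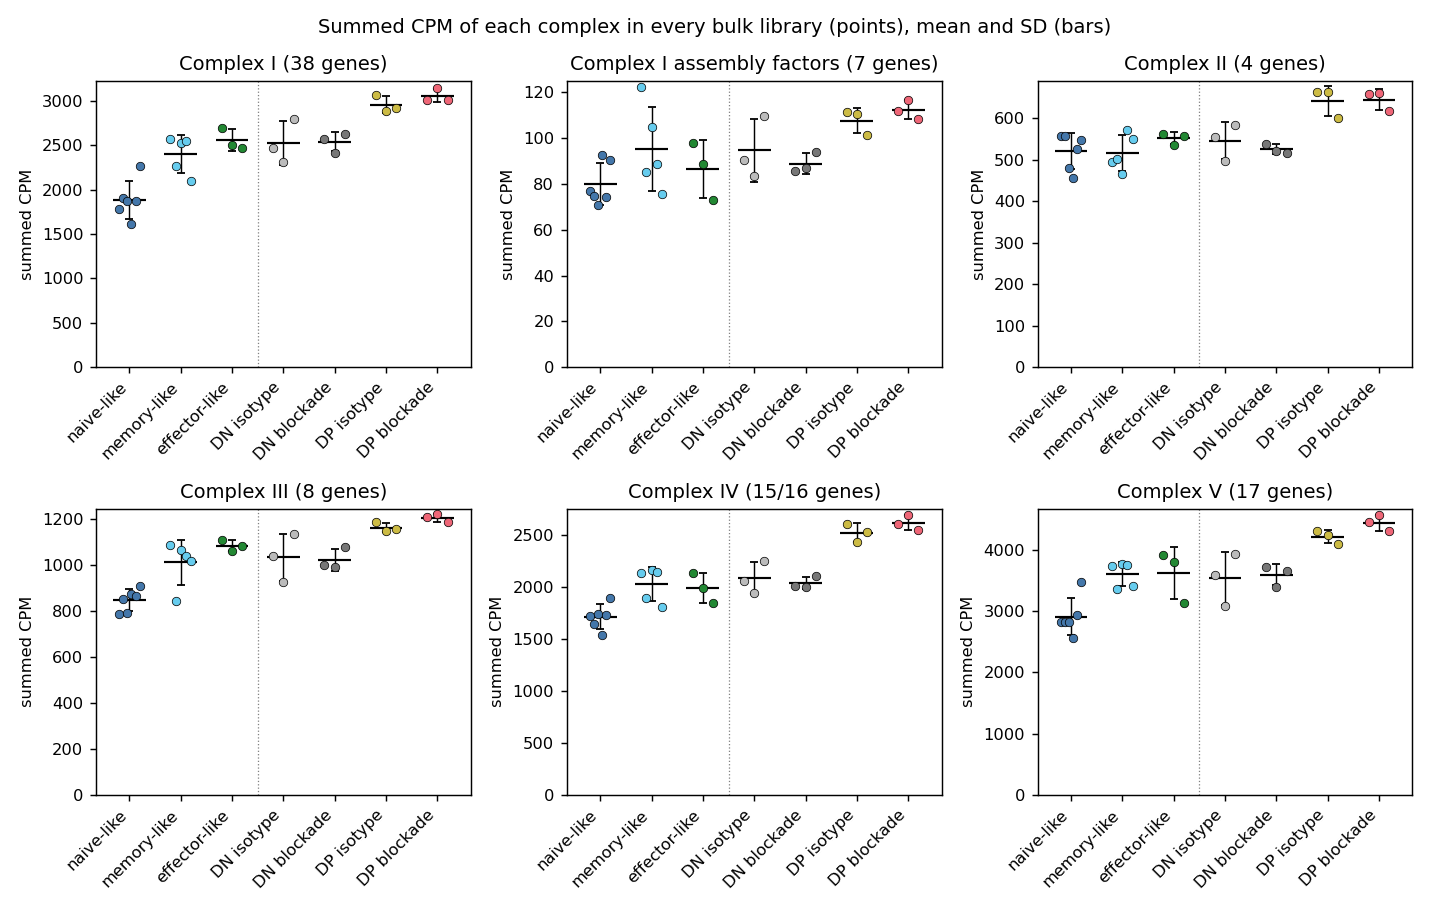
Summed CPM of the members of each complex (y axis, linear from 0) in every bulk library (points), with mean and SD as bars, for the 3 PD-1- subsets (left of the dotted line) and the 4 treated groups (right). DP isotype and DP blockade libraries lie above DN libraries in each of complexes I to V.

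Between members, levels can be compared only per length. The authors' normalized signal moves with transcript length as a per-length unit would (Spearman rho 0.74 over 89 genes between counts per unit of signal and transcript length, across genes), and is used here for ranks within a group. Cox4i1, the common form of a regulatory subunit of complex IV, ranked first in every group examined, at 558 ± 40 in naive-like (SD, n = 6) and 841 ± 39.8 in DP blockade cells (n = 3). Atp5b, the catalytic beta subunit of ATP synthase, Cox8a, Uqcrh and Atp5h were among the first 7 in naive-like, memory-like, effector-like, DN isotype and DP blockade cells. The rank of Cox7a2l differed between groups, from 2 in naive-like cells (534.5 ± 52.4) to 7 in memory-like (359 ± 50.9) and 10 in effector-like cells (272 ± 30.7), and from 5 in DN isotype (376 ± 26.7) to 18 in DP blockade cells (271 ± 2.14). At the other end stood the assembly factors Ndufaf4, Ndufaf5 and Ndufaf6 and Atp5s, a factor that is not a core subunit, at 2.16 to 5.03 in naive-like cells. Alternative isoforms known from other tissues were at or near 0: over all 26 bulk libraries the highest level was 0.736 CPM for Cox7a1, 1.58 for Cox6b2, 0.295 for Cox4i2, 0.995 for Cox7b2, 0.365 for Cox8c and 1.10 for Ndufa4l2. Cox6a2, the muscle form of Cox6a1, was left out of the members by the rule and was not at 0: it was at 65.2 ± 6.59 CPM in DN isotype and 33.2 ± 6.97 in DN blockade cells (SD, n = 3 each). Cox6a2 is also in the list of plasmacytoid dendritic cell genes summed below, and which cells supplied it was not tested. Many members have processed pseudogenes, with which their counts can be shared. Atp5g1, Atp5g2 and Atp5g3 are separate genes that encode the same mature c subunit.

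Memory-like cells were compared with naive-like cells within the PD-1- sort. Of 84 members tested, 9 were higher in memory-like cells, 1 was lower and 74 did not pass. Over all 12388 genes, 5.51% were called, 2.78% higher and 2.73% lower. The median log2 fold change was 0.33 over the members and -0.01 over all genes, and 68 members were positive. In complex I the called genes were Ndufs4, Ndufv2 and Ndufa4. In complex IV they were Cox5a, Cox6b1 and Cox6c, and Cox7a2l in the other direction. In complex V they were Atp5l, Atp5e and Atp5d. No gene of complex II or III and no assembly factor passed.

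Ndufs4, an accessory subunit needed for a stable complex I, was at 25.8 to 50.3 CPM in the 6 naive-like libraries (median 36.2) and at 70.7, 71.8, 79.3, 71.6 and 55.9 CPM in the memory-like ones. The groups did not overlap (log2 0.81 ± 0.18, adjusted p = 0.0173). Cox6b1, a subunit of complex IV on the side of cytochrome c, was at 64.1 to 99.3 CPM (median 70.25) in naive-like and at 123, 124.5, 123, 131 and 111 in memory-like libraries (log2 0.61 ± 0.12, adjusted p = 0.00604), again without overlap. Atp5e, the epsilon subunit of ATP synthase, was at 25.7 to 45.9 CPM (median 36.5) against 68.4, 54.7, 74.7, 72.0 and 44.6, so that the lowest memory-like library lay within the naive-like range (log2 0.69 ± 0.17, adjusted p = 0.024). Atp5l, the g subunit, differed by 0.61 ± 0.14 and Atp5d, the delta subunit, by 0.41 ± 0.11 (adjusted p = 0.0469, kept in 5 of 19 alternatives). Ndufv2, an iron-sulfur subunit of the NADH-binding part, differed by 0.41 ± 0.11 (kept in 8 of 19) and Cox6c by 0.51 ± 0.14 (adjusted p = 0.0472, kept in 7 of 19). Sdha, the flavoprotein of complex II, was at 288 to 378 CPM (median 318) in naive-like and at 235.5, 265.5, 249, 331.5 and 284 in memory-like libraries, and did not pass (log2 -0.38 ± 0.11, adjusted p = 0.0619). The count of 10 calls was 22 in DESeq2 and 21 (20 higher) with library totals in place of TMM, which moved the median of all genes to 0.12, and it fell to 4 when memory-like replicate 1 was left out, to 5 when replicate 3 of that group was, and to 6 when its replicate 4 or naive-like replicate 1 or 2 was. Beside these genes, 10 of 22 G2/M genes were higher in memory-like cells, with a summed level of 465 to 1379 CPM against 138 to 343. Plasmacytoid dendritic cell genes were also higher, 5 of 12, at 703.5 to 2562 against 238 to 702 CPM, and 4 of 6 CD4 T cell markers, at 160 to 294 against 47.4 to 122. Their part in the result was not tested.

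Effector-like cells differed from naive-like cells in 8 members, 6 higher and 2 lower, and 76 did not pass. Among all genes 6.42% were called, 2.62% higher and 3.79% lower. The median was 0.32 over the members and 0.04 over all genes. Ndufs4 (log2 0.84 ± 0.21), Ndufa4 (0.77 ± 0.16) and Cox6b1 (0.70 ± 0.13, adjusted p = 0.00358) were higher as in memory-like cells, and these comparisons share the naive-like libraries. Sdhb, the iron-sulfur subunit of complex II, was at 93.6 to 125 CPM (median 99.7) in naive-like and at 175, 151 and 176 in effector-like libraries, which did not overlap (log2 0.46 ± 0.13, adjusted p = 0.0459, kept in 6 of 16 alternatives). Atp5l differed by 0.65 ± 0.17 and Atp5h, a subunit of the peripheral stalk, by 0.48 ± 0.13 (adjusted p = 0.0315, kept in 8 of 16). Cox7a2l and Atp5g2 were lower, Atp5g2 by -0.56 ± 0.10 (adjusted p = 0.00268), with 225 to 279.5 CPM in naive-like libraries (median 233.5). Here too the count moved: it was 17 in DESeq2, 24 (23 higher) with library totals, where the median of all genes was 0.25, 19 without the 3 libraries that stood apart, 16 without naive-like replicate 6, 4 without effector-like replicate 1 or 3 and 5 without effector-like replicate 2. Of 22 G2/M genes 5 were higher, with 298 to 727 CPM in effector-like libraries, and their part in the result was not tested.

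Between effector-like and memory-like cells, 1 of 84 members passed, no larger a share than the 1.91% of all genes, and the median over the members was -0.01 beside 0.01 over all genes. That gene was Atp5g2, at 205, 199 and 157.5 CPM in effector-like and at 262, 241, 243, 262.5 and 258 in memory-like libraries, without overlap (log2 -0.53 ± 0.10, adjusted p = 0.0151). The call was kept in 9 of 15 alternatives. It was lost without effector-like replicate 2 or 3, with no filter on low counts, with library totals, with the replicate block and with the 2 groups fitted alone. In the plot of fold changes for the subsets, members of every complex lie on both sides of 0 in this comparison, while most of complexes I, III, IV and V lie above 0 in the comparisons with naive-like cells.

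**Figure D2:**
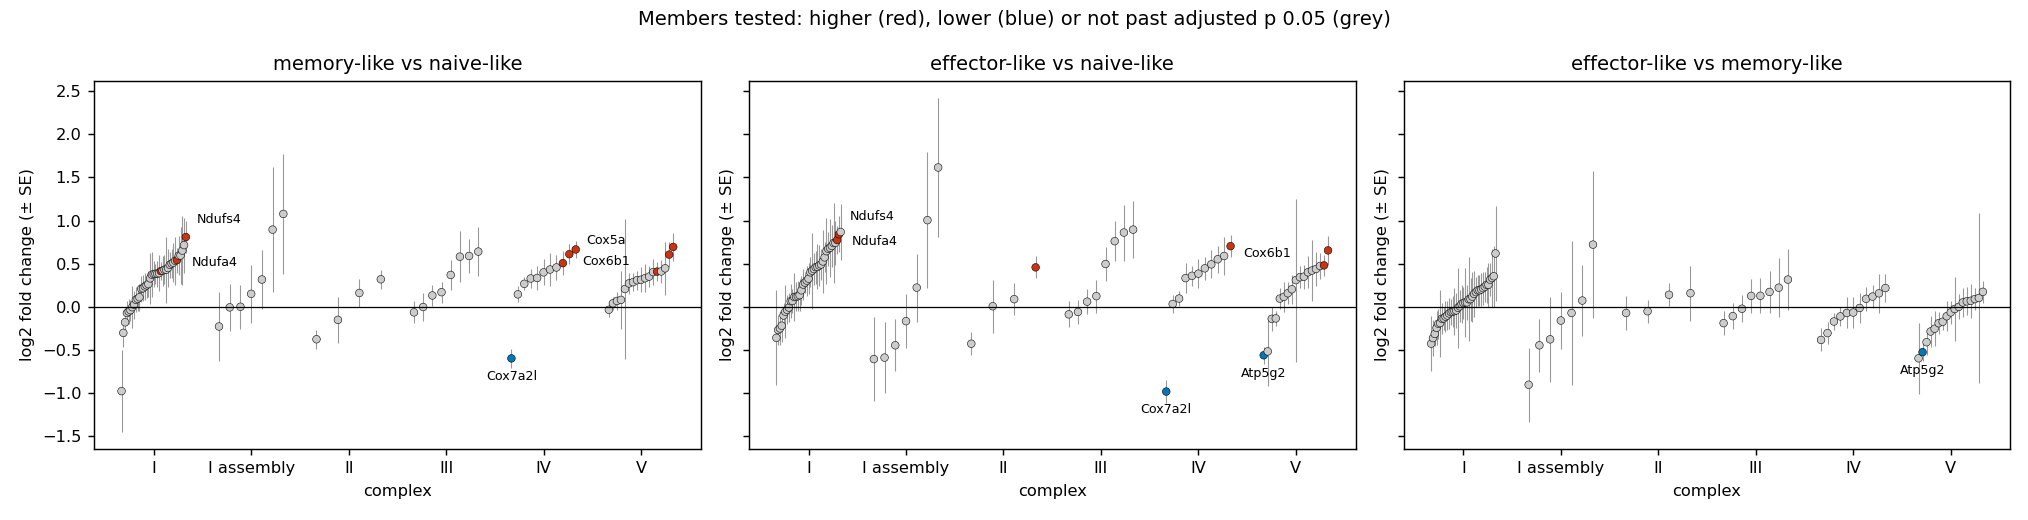
Log2 fold change ± SE (y axis) of each member tested, ordered by fold change within its complex (x axis), in 3 comparisons of the PD-1- subsets; red points passed higher, blue lower and grey did not pass. Atp5g2 is the only coloured point between effector-like and memory-like cells, and Cox7a2l is the lowest point of complex IV in both comparisons with naive-like cells.

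Cox7a2l went against most other Cox genes of complex IV. It encodes SCAF1, described as joining complexes III and IV into supercomplexes (not measured here) and named for its likeness to the subunit Cox7a2. Whether SCAF1 has that role in the mouse strain used here was not tested. Cox7a2l was at 457 to 581 CPM in the naive-like libraries (median 538). It was at 414, 311, 422, 441 and 322 in memory-like and at 356, 285 and 289 in effector-like libraries. Every naive-like library was above every other library of that experiment. The difference from naive-like cells was -0.60 ± 0.11 in memory-like (adjusted p = 0.00552) and -0.98 ± 0.13 in effector-like cells (adjusted p = 0.000198), and both calls were kept in every alternative run (19 and 16). In the treated mice it was at 378.5, 420.5 and 417.5 CPM in DN isotype libraries. It was at 291, 331 and 289 in DN blockade, 302, 293 and 311 in DP isotype, and 297, 282 and 285 in DP blockade libraries. DN isotype libraries were thus above all 9 others. The difference between DP and DN cells under isotype was -0.46 ± 0.09 (adjusted p = 0.00251, kept in all 13 alternatives), and under blockade -0.06 ± 0.09, where the libraries overlapped (adjusted p = 0.655).

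Cox5a was higher in memory-like than in naive-like cells and in DP than in DN cells. It encodes a nuclear subunit of cytochrome c oxidase that lies on the matrix side. It was at 75.6 to 107 CPM in naive-like libraries (median 86.6), at 147, 145, 151, 154 and 159 in memory-like and at 147, 120.4 and 122.5 in effector-like libraries. Memory-like cells differed from naive-like cells by 0.67 ± 0.10 (adjusted p = 0.00171, kept in all 19 alternatives). Effector-like cells did not overlap with naive-like cells either but did not pass (log2 0.36 ± 0.12, adjusted p = 0.091). Cox5a was at 113, 108 and 137 CPM in DN isotype and 114, 121 and 130.1 in DN blockade libraries. It was at 214, 193 and 205 in DP isotype and 204, 225.5 and 201 in DP blockade libraries, all above every DN library. The difference between DP and DN cells was 0.75 ± 0.10 under isotype (adjusted p = 0.000113) and 0.80 ± 0.10 under blockade (adjusted p = 9.53e-05). Within complex IV it was the largest difference in both.

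Ndufa4, first named as a complex I subunit and now counted with complex IV, followed the PD-1- subsets but not the step to DP cells. Its level was 63.8 to 108.5 CPM in naive-like (median 89.6), 161, 101.5, 162, 156 and 118 in memory-like and 174.5, 173 and 173 in effector-like libraries. Effector-like libraries lay above all others (log2 0.77 ± 0.16 from naive-like, adjusted p = 0.00891), and memory-like cells were also higher than naive-like (0.54 ± 0.14, adjusted p = 0.0397, kept in 8 of 19 alternatives). It was at 155, 132.5 and 157 CPM in DN isotype against 140, 121 and 122 in DP isotype libraries, where the sorts overlapped and it did not pass (log2 -0.24 ± 0.10, adjusted p = 0.0934). The plot of 4 members by library shows these orders side by side.

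**Figure D3:**
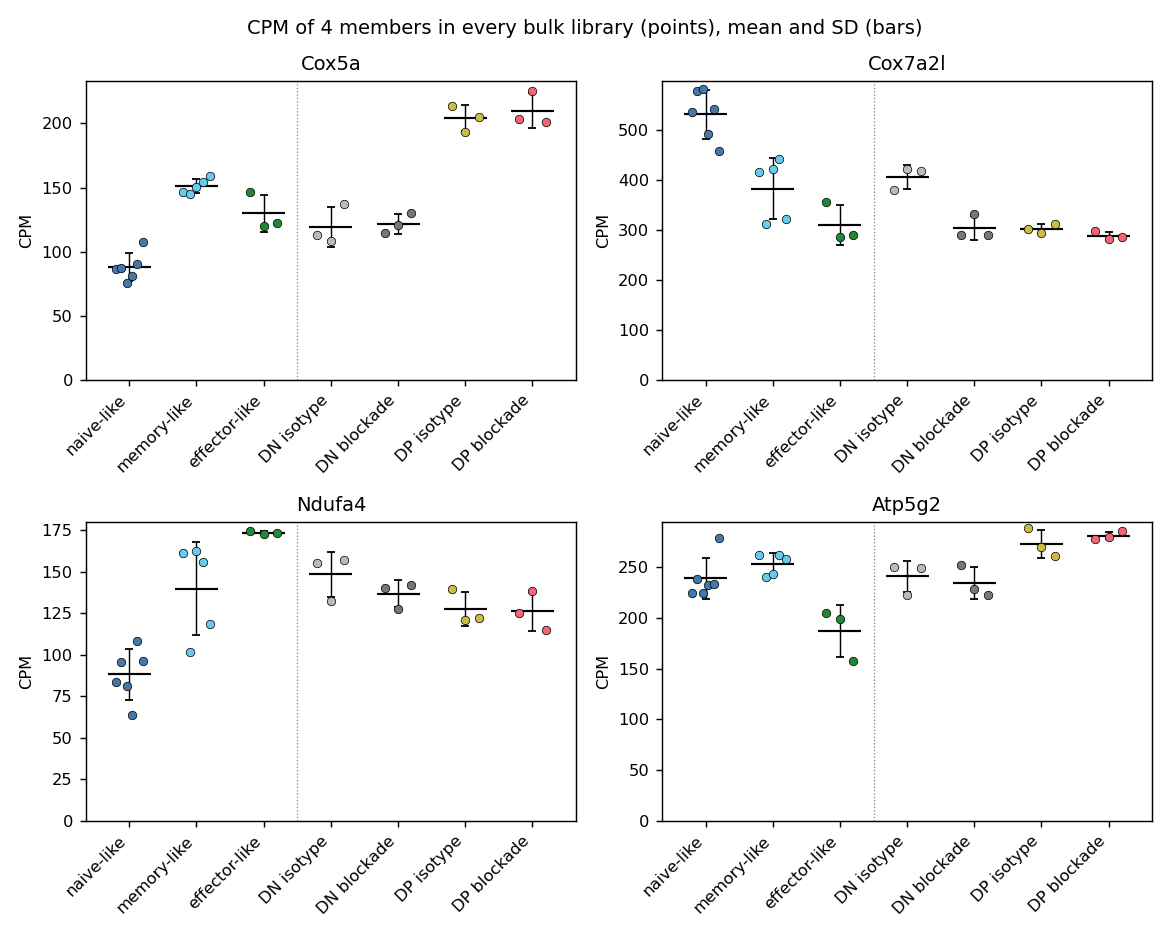
CPM (y axis, linear from 0) of Cox5a, Cox7a2l, Ndufa4 and Atp5g2 in every bulk library (points), with mean and SD as bars; the dotted line separates the 2 experiments. Cox5a is highest in DP libraries, Cox7a2l in naive-like and DN isotype libraries, Ndufa4 in effector-like libraries, and Atp5g2 is lowest in effector-like libraries.

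Among the comparisons of treated mice, the largest number of members was called between DP and DN cells, most of them higher in DP cells. Counts of calls cannot be set against those of the subsets. The spread between libraries, as edgeR's biological coefficient of variation, was 0.62 in the subsets and 0.23 in the treated mice. Under isotype 29 members were higher in DP cells, 3 were lower and 52 did not pass. This comparison also called 29.9% of all 12710 genes, 15% higher and 14.8% lower, so that the share of members called higher was above the background and the share called lower below it. The median over the members was 0.26, beside 0.00 over all genes, and 77 of 84 were positive. Of the classes by symbol, complex IV took part most evenly: of 11 Cox genes tested 9 were higher, Cox7a2l was lower, and Cox4i1 did not pass. Ndufa4, a complex IV subunit placed under complex I by its symbol, leaned lower and did not pass either, as given above. 11 of 37 complex I genes were higher, 2 of 4 of complex II, 2 of 8 of complex III and 5 of 17 of complex V, and none of the 7 assembly factors.

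Ndufb7, a subunit of the complex I membrane arm, was at 56.2, 58.6 and 65.5 CPM in DN isotype and at 96.9, 87.3 and 94.7 in DP isotype libraries (log2 0.60 ± 0.10, adjusted p = 0.0005). Ndufb8 of the same arm was at 67.2, 53.5 and 78.3 against 107.7, 94.3 and 98.4 CPM (log2 0.58 ± 0.12). Neither overlapped between the sorts. Ndufa6 was lower, at 102, 105 and 116 against 91.6, 88.3 and 91.8 CPM (log2 -0.28 ± 0.09, adjusted p = 0.0407), a call kept in 2 of 13 alternatives. In complex II, Sdhb was at 149, 129 and 164 against 208.5, 199 and 182 CPM (log2 0.39 ± 0.09, adjusted p = 0.00459). Sdhd, its membrane anchor, differed by 0.44 ± 0.10. In complex III, Uqcrq differed by 0.45 ± 0.14 (adjusted p = 0.0269) and Uqcr10 by 0.33 ± 0.11 (adjusted p = 0.043, kept in 2 of 13 alternatives), while the core subunit Uqcrc2 and the Rieske protein Uqcrfs1 did not pass.

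In complex IV, Cox6b1 was at 125, 115 and 145 CPM in DN and at 195, 178 and 188 in DP isotype libraries (log2 0.52 ± 0.10, adjusted p = 0.0015). Cox6c differed by 0.42 ± 0.09 (adjusted p = 0.00237) and Cox5b, another matrix-side subunit, by 0.47 ± 0.11. Cox4i1 was at 446, 445 and 491 against 565, 501 and 539 CPM, without overlap, and did not pass (0.19 ± 0.08, adjusted p = 0.0969). In complex V, Atp5j, coupling factor 6 of the peripheral stalk, was at 121, 103 and 130.3 against 161, 167.5 and 162 CPM (log2 0.45 ± 0.08, adjusted p = 0.00116). Atp5j2 differed by 0.47 ± 0.11 and Atp5f1, the b subunit of that stalk, by 0.38 ± 0.09. Atp5sl, which despite its symbol is no subunit of ATP synthase, was at 34.0, 27.7 and 29.8 against 20.8, 24.1 and 18.7 CPM (log2 -0.56 ± 0.13, adjusted p = 0.00627). Of the catalytic pair neither passed: Atp5a1 overlapped between the sorts, and Atp5b, at 962, 742 and 1054 CPM in DN and 1107, 1188 and 1065 in DP isotype libraries, did not (0.26 ± 0.10, adjusted p = 0.0648).

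Under blockade the step from DN to DP cells was called for more members: 45 were higher, 1 was lower and 38 did not pass, where 27% of all genes were called, 14.4% higher and 12.5% lower. The median was 0.33 over the members and -0.04 over all genes. By symbol, 10 of 11 Cox genes of complex IV were higher, and 13 of 17 genes of complex V. Of complex I, where Ndufa4 is placed, 13 of 37 were higher, of complex III 4 of 8 and of complex II 3 of 4. Ndufb7 was at 65.6, 69.0 and 75.1 CPM in DN and at 108, 117 and 112 in DP blockade libraries (log2 0.70 ± 0.10, adjusted p = 0.000227). Atp5j was at 106, 116 and 113 against 172, 175 and 171 CPM (log2 0.64 ± 0.08, adjusted p = 0.000125). Both sets were apart by more than the range within either group. Cox4i1 (log2 0.30 ± 0.08) and Atp5a1 (0.30 ± 0.08, adjusted p = 0.0146), core members that did not pass under isotype, passed here. So did Sdha (0.22 ± 0.08, adjusted p = 0.047, kept in 2 of 13 alternatives), Uqcrfs1 (0.30 ± 0.10, kept in 5 of 13) and Uqcrc1, a core subunit of complex III, which was at 246, 233 and 269 against 309, 292.5 and 312 CPM (0.30 ± 0.08, adjusted p = 0.0125). The assembly factors Ndufaf3 (0.73 ± 0.20, adjusted p = 0.0157) and Ndufaf7 (0.42 ± 0.14) were also higher, and Atp5sl was lower (-0.40 ± 0.13). The last 2 calls were each kept in 3 of 13 alternatives. The calls numbered 28 without DP blockade replicate 2, and under isotype 19 without DN isotype replicate 2 and 20 without DP isotype replicate 1 or 3. Whether more members differ under blockade than under isotype is not shown by these counts: the test of the difference between the steps, which equals that of the difference between the blockade effects, called 0 members and 0% of all genes, with 2 members under an unadjusted p of 0.05, and DESeq2 called 0 members.

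Some core and alternative subunits were read in every comparison whether or not they passed. Ndufs1 and Ndufv1, which hold the iron-sulfur clusters and the NADH site of complex I, passed in none of the 8 tests, and Ndufs1 came nearest between DP and DN isotype cells, at 99.6 ± 8.46 and 78.1 ± 8.49 CPM (log2 0.32 ± 0.12, adjusted p = 0.058). Uqcrc2 passed in none either. Of the c subunit genes, Atp5g1 was at 122 ± 17.9 CPM in DN and 126.5 ± 12.2 in DP blockade cells and did not pass, while Atp5g3 (0.40 ± 0.12, adjusted p = 0.03) and Atp5g2 (0.28 ± 0.08, adjusted p = 0.0248) were higher in those DP cells. The liver forms Cox6a1 and Cox7a2, the ones used in most tissues, were both higher in DP cells under isotype (0.29 ± 0.09 and 0.35 ± 0.09) and under blockade (0.47 ± 0.09 and 0.53 ± 0.09).

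Genes listed as markers of other cell populations and of the cell cycle differed between these sorts. Which cells supplied their counts, CD8+ T cells among them, was not tested. All 22 G2/M genes were higher in DP than in DN cells under isotype and 17 under blockade, with summed levels of 3190 to 3493 CPM in DP isotype, 2835 to 3273 in DP blockade, 398 to 1403 in DN isotype and 796 to 1245 in DN blockade libraries. DP cells held less of 11 of 12 plasmacytoid dendritic cell genes under isotype and of 10 under blockade. Their sum was 2510 to 3310 CPM in DN isotype, 1566 to 2328 in DN blockade and 608.5 to 847 in DP libraries, where the defining marker Siglech was at 3.70 ± 3.77 (isotype) and 0.442 ± 0.483 CPM (blockade, SD, n = 3 each). Myeloid markers summed to 276.5 to 662 CPM in DP and 79.2 to 219 in DN libraries, CD4 T cell markers to 393 to 565 and 169.6 to 291, and T cell core genes to 3971 to 4962 and 3031 to 3796. NK cell markers summed to 168 to 251 CPM in DP and 289.5 to 463 in DN libraries, and B cell markers to 2.56 to 6.05 and 13.5 to 28.6. The part of these in the higher level of the members was not tested.

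**Figure D4:**
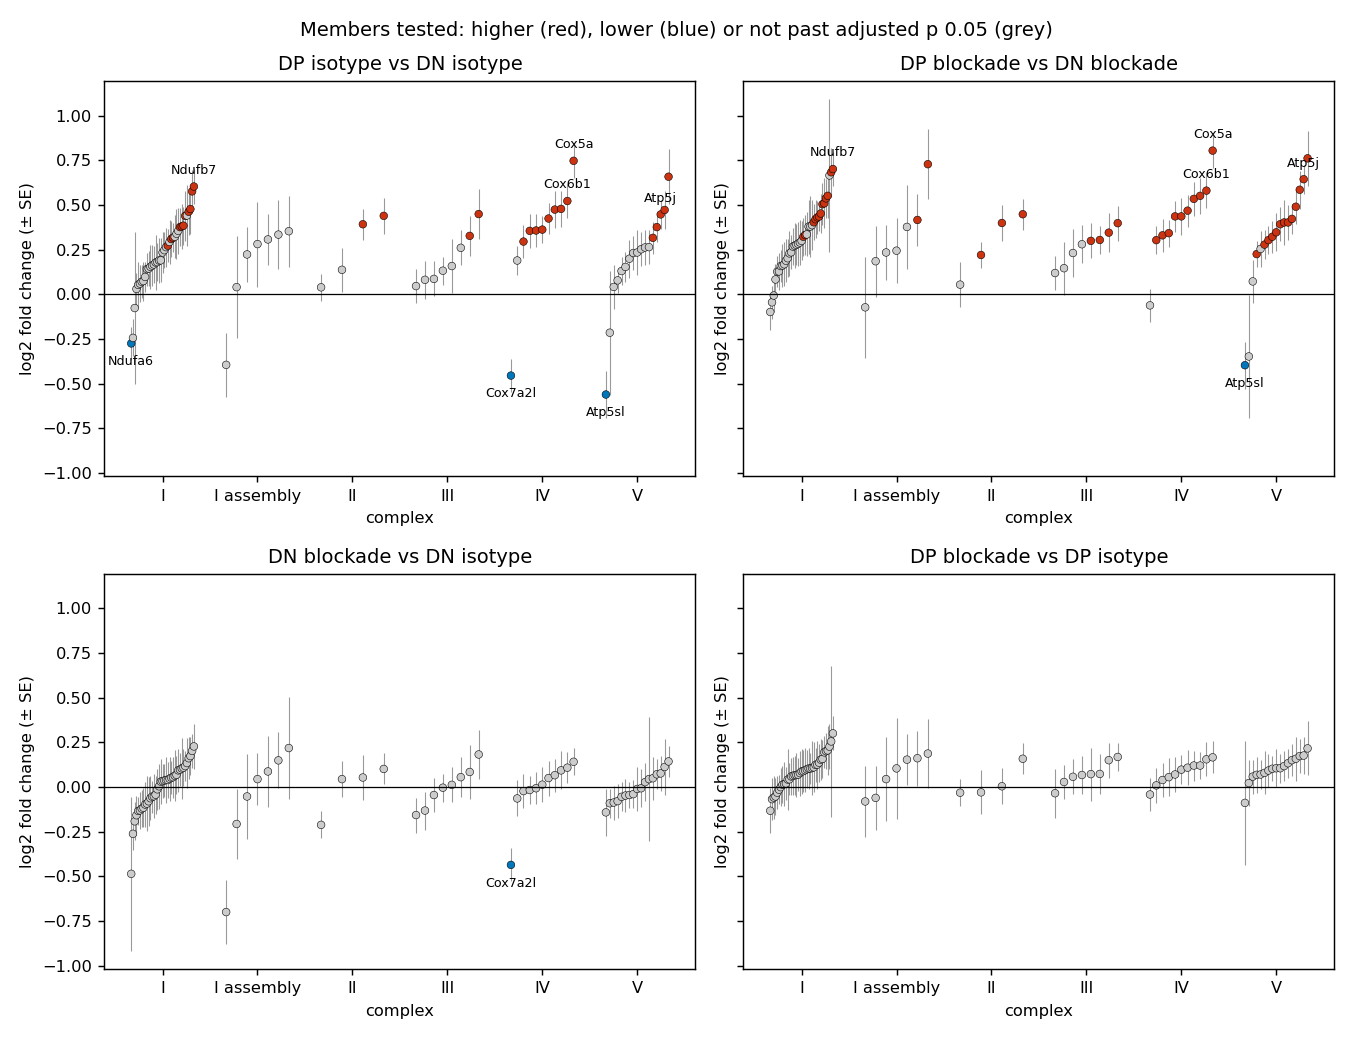
Log2 fold change ± SE (y axis) of each member tested, ordered by fold change within its complex (x axis), for DP against DN cells (top) and blockade against isotype (bottom); red points passed higher, blue lower and grey did not pass. The top panels are mostly above 0, and the bottom panels hold 1 coloured point, Cox7a2l in DN cells.

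Between blockade and isotype few members were called. In DN cells 1 of 84 was lower and none higher, a share close to the 1.12% of all genes called, and the median was 0.02 over the members and -0.01 over all genes. That gene was Cox7a2l, whose libraries given above did not overlap (log2 -0.44 ± 0.09, adjusted p = 0.044). With the replicate number of the titles as a block, 0 members were called in DN cells. The library names bear the numbers 1 to 3 under isotype and 7 to 9 under blockade, so that block joins libraries whose names share no number. The call on Cox7a2l was lost in 8 of 13 alternatives in all. Among these were the fits without Rn45s and with DN libraries alone. The call was also lost without DN blockade replicate 1 or 3 and without DN isotype replicate 1 or 2. The sum of plasmacytoid dendritic cell genes also differed between these groups, as given above, and its part in the result was not tested. In DP cells blockade called 0 of 84 members by edgeR and by DESeq2, with 1 member under an unadjusted p of 0.05, where 0.0629% of all genes were called. That member was Ndufb7, at 96.9, 87.3 and 94.7 CPM under isotype and 108, 117 and 112 under blockade, with no overlap (log2 0.30 ± 0.10, adjusted p = 0.53). The next smallest p-values belonged to Uqcrc1 (0.17 ± 0.08) and Ndufa13 (0.19 ± 0.09), both with an adjusted p of 0.704, and among negative values to Ndufb6 (-0.13 ± 0.13), Ndufs1 and Ndufa7. The median over the members in DP cells was 0.09, beside -0.01 over all genes, and 70 of 84 were positive. The effect on Cox7a2l in DP cells was -0.04 ± 0.09, and the test of the difference between sorts gave 0.39 ± 0.13 (adjusted p = 0.407), so a different effect in DN and DP cells is not shown. Ndufaf4, an assembly factor, was at 19.8, 17.1 and 24.7 CPM in DN isotype and at 13.4, 9.74 and 14.9 in DN blockade libraries, without overlap, but did not pass (log2 -0.70 ± 0.18, adjusted p = 0.0839). Among other lists in DN cells, all 6 red blood cell genes were lower under blockade, from 2876 to 4945 summed CPM under isotype to at most 119. In DP cells 4 of these 6 genes were lower, from 1464 to 3262 summed CPM under isotype to at most 13.7. The part of red blood cell genes in the results of either sort was not tested.

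The genes that build and feed the chain were read from lists of their own. Of 33 assembly factors tested beyond the Ndufaf genes, 4 were higher in DP than in DN cells under isotype and 4 under blockade, and none was lower, with medians of 0.02 and 0.13. Of all genes 15% were higher and 14.8% lower under isotype, and 14.4% and 12.5% under blockade, so that the higher counts are near the background. The same shares apply to the lists that follow. Cox17, the chaperone that brings copper to complex IV, was at 35.0 ± 3.16 CPM in DN and 90.4 ± 6.80 in DP isotype cells (log2 1.34 ± 0.12, adjusted p = 7.60e-06). It was at 41.7 ± 5.14 and 108 ± 10.96 under blockade (log2 1.40 ± 0.12, adjusted p = 9.53e-06). Cox17 was also higher in effector-like (0.99 ± 0.22, adjusted p = 0.0119) and memory-like (0.69 ± 0.19, adjusted p = 0.0493) than in naive-like cells. Of 15 electron carriers 4 were higher in DP cells under isotype and 5 under blockade, and none was lower. Among them were Gpd2, the mitochondrial glycerol phosphate dehydrogenase, from 34.3 ± 14.1 to 110.5 ± 5.28 CPM under isotype (log2 1.68 ± 0.20, adjusted p = 5.215e-05), and Etfb, which carries electrons from fatty acid oxidation, from 51.2 ± 5.03 to 100.4 ± 6.88 (0.94 ± 0.10). Cytochrome c, Cycs, was at 133 ± 28.8 and 179 ± 23.2 CPM (0.40 ± 0.13, adjusted p = 0.0349), while Cyc1, the cytochrome of complex III, did not pass. Of 19 TCA cycle genes 5 were higher and none lower under isotype, with Idh3a at 0.48 ± 0.10, and 5 were higher and 1 lower under blockade.

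Of 15 regulators of mitochondrial biogenesis tested, 1 was higher and 3 lower in DP cells under isotype, with a median of -0.17, and none was higher and 1 lower under blockade. With 15% of all genes higher and 14.8% lower under isotype, and 14.4% and 12.5% under blockade, these few calls show no direction for the list. Ppargc1b, a coactivator of respiratory genes, was at 9.22 ± 1.54 CPM in DN and 4.24 ± 1.05 in DP isotype cells (log2 -1.16 ± 0.25, adjusted p = 0.00369). Tfam, which packs and transcribes mitochondrial DNA, was at 42.0 ± 4.96 and 40.7 ± 4.98 CPM, and Nrf1, the factor of the promoter motif above, at 70.5 ± 10.6 and 75.1 ± 6.19. Neither passed. Myc was at 182 ± 17.7 CPM in DN isotype, 101 ± 23.5 in DN blockade (log2 -0.86 ± 0.16 between them, adjusted p = 0.0306), and 78.9 ± 7.88 in DP isotype cells (-1.23 ± 0.16 from DN isotype). In effector-like cells Myc was at 39.6 ± 9.06 CPM against 221 ± 47.6 in memory-like (-2.57 ± 0.21, adjusted p = 1.72e-05). Atp5g2 alone of the members was called between these groups, where 1.91% of all genes were. Whether Myc and the members are linked was not tested.

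In single DN cells the members could be set beside the subunits encoded in mitochondrial DNA, which were read in the single cells only. There is 1 library for each treatment, so no test is possible. Intervals (95%, Poisson) cover counting error only. Columns of the single-cell table were assigned to isotype and blockade by the suffixes 1 and 2, which match the sample names S1 and S2. 2950 of 2963 isotype and 2502 of 2508 blockade cells were kept, with a median of 3652 and 3840 UMIs, and 7 barcodes occurred in both. The members took a median of 1.94% of a cell's UMIs under isotype and 2.24% under blockade, with a median of 40 and 45 members seen per cell. No kept cell was without UMIs of the members.

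Pooled over cells, the 91 members were at 20790 CPM under isotype and 23230 under blockade, a log2 ratio of 0.16 (0.15 to 0.17). All 9875 genes with at least 20 UMIs in both libraries had a median log2 ratio of 0.15, and the 85 members among them 0.13, close to each other. Of those members 13 were at least 25% higher under blockade (15.3%, against 31.7% of all genes) and 1, Ndufaf4, was at least 20% lower (1.18%, against 10.7%). The direction of the sum depended on the total it was divided by. With mitochondrial and ribosomal protein genes left out of the total, the log2 ratio was -0.07 for all members, -0.09 for complex I and -0.01 for complex IV. Ratios between members do not depend on that total. Complex IV was at 5629 and 6543 CPM (log2 0.22), complex I at 6033 and 6629 (0.14), complex III at 2387 and 2618 (0.13), complex V at 6182 and 6837 (0.145) and complex II at 428.5 and 464 (0.11), with intervals of 0.20 to 0.23 for complex IV and 0.12 to 0.15 for complex I.

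Cox5a had the largest ratio of the subunits of complex IV, from 331 to 478 CPM (log2 0.53, 0.47 to 0.59), followed by Cox7a2 (297 to 394), Cox8a (804 to 1043), Cox6b1 (420.5 to 545) and Cox5b (362 to 452). In the other complexes Ndufs4 was at 115.5 and 149 CPM, Ndufb7 at 206 and 264, Uqcrb at 258 and 326 and Atp5d at 405.5 and 514. Cox7a2l was lower, from 858.5 to 729 CPM (log2 -0.24, -0.28 to -0.20), in the same direction as in the bulk DN libraries. Ndufa4 was also lower, from 425 to 369.9 CPM (log2 -0.20, -0.26 to -0.14), and Atp5a1, from 379 to 338. The bulk libraries of DN cells had Cox5a at 119.6 ± 15.6 CPM under isotype and 122 ± 7.94 under blockade (SD, n = 3 each), and it was not called there (log2 0.01 ± 0.10, adjusted p = 0.964). Cox17 was at 99.99 and 171.5 CPM in the single cells.

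The 13 subunits encoded in mitochondrial DNA were lower under blockade, 26100 against 20480 CPM in sum (log2 ratio with an interval of -0.36 to -0.34), while the nuclear ones were higher on the same total. For 12 of the 13 the interval lay below 0, and for mt-Nd6, with 61 UMIs under isotype, it did not. The other 6 complex I subunits had log2 ratios from -0.52 (mt-Nd1) to -0.69 (mt-Nd3), mt-Cytb of complex III -0.47, and the ratios nearest to 0 were those of mt-Co1 at -0.15 (4835 to 4358 CPM) and mt-Co2 at -0.21, both of complex IV. mt-Atp6 was at 6767 and 5391 CPM. These messages are also a usual measure of cell quality, and what part damaged cells have in the difference was not tested.

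The libraries differed in composition, and classes were formed by UMIs of marker genes to set like cells side by side. These are ranges and not cell types: 67 isotype and 116 blockade cells sat at the bound of 3 G2/M UMIs, 168 of 565 and 323 of 1619 cells with Gzmb held 1 UMI of it, and 627 of 1450 and 291 of 663 cells with Ccr7 held 1 UMI of that gene, which free RNA can supply. Cycling cells numbered 164 under isotype and 303 under blockade, other cells with a Gzmb UMI 525 and 1406, cells with a Ccr7 UMI and none of Gzmb 1252 and 301, and cells with neither 1009 and 492. Summed CPM of the members was highest in cycling cells, at 25860 under isotype (25630 to 26100) and 24860 under blockade (24690 to 25030). It was 21990 and 23360 in cells with Gzmb, 19220 and 20240 in cells with Ccr7 and 19780 and 22040 in cells with neither. On this total cycling cells thus held less under blockade and the other 3 classes more; classes were not recomputed on the smaller total. Median UMIs per cell were 6072 and 5290 in cycling cells and 3280 to 3996 in the other classes.

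Within the classes Cox7a2l was lowest in cycling cells, at 558 and 544 CPM, and highest in cells with Ccr7, at 976 and 923, with 789 and 776 in cells with Gzmb. Its intervals under isotype and blockade overlapped in cycling cells, in cells with Gzmb and in cells with Ccr7. They did not in cells with neither gene, at 884 (853 to 915) and 774 (735 to 814). On the total of all UMIs, Cox5a was higher under blockade in each of the 4 classes. It was at 460 and 558 CPM in cycling cells, 424 and 486.5 with Gzmb, 272 and 348 with Ccr7 and 301 and 403 with neither. The intervals, which cover counting error only, did not overlap. The median log2 ratio of all genes was 0.15 on that total. The smaller total, which moved the ratio of all members from 0.16 to -0.07, was not applied to the classes. Subunits encoded in mitochondrial DNA were lower under blockade in each class, at 22820 and 18550, 22870 and 19780, 27520 and 24940, and 27470 and 22930 CPM in the same order. Markers of most other cells were more abundant in the blockade library, where myeloid genes summed to 666 against 113 CPM, NK cell genes to 612 against 196.0, plasmacytoid dendritic cell genes to 648 against 338 and red blood cell genes to 144 against 8.797. B cell genes were less abundant, at 9.44 against 20.8 CPM. The bulk DN libraries had the plasmacytoid dendritic cell and red blood cell sums in the other order, as given above. NK cell sums overlapped there, at 372 to 463 CPM under isotype and 289.5 to 438 under blockade. Myeloid sums overlapped too, and B cell sums were in the same order as in the single cells. Single cells with 2 or more UMIs of certain markers were then left out (19.6% of isotype and 25% of blockade cells). The markers were myeloid, B cell, plasmacytoid dendritic cell and tumour and stroma genes, without Vim and Bst2. NK cell and red blood cell genes were not used to leave cells out. In the remaining cells the log2 ratio was 0.18 for all members and 0.23 for complex IV.

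**Figure D5:**
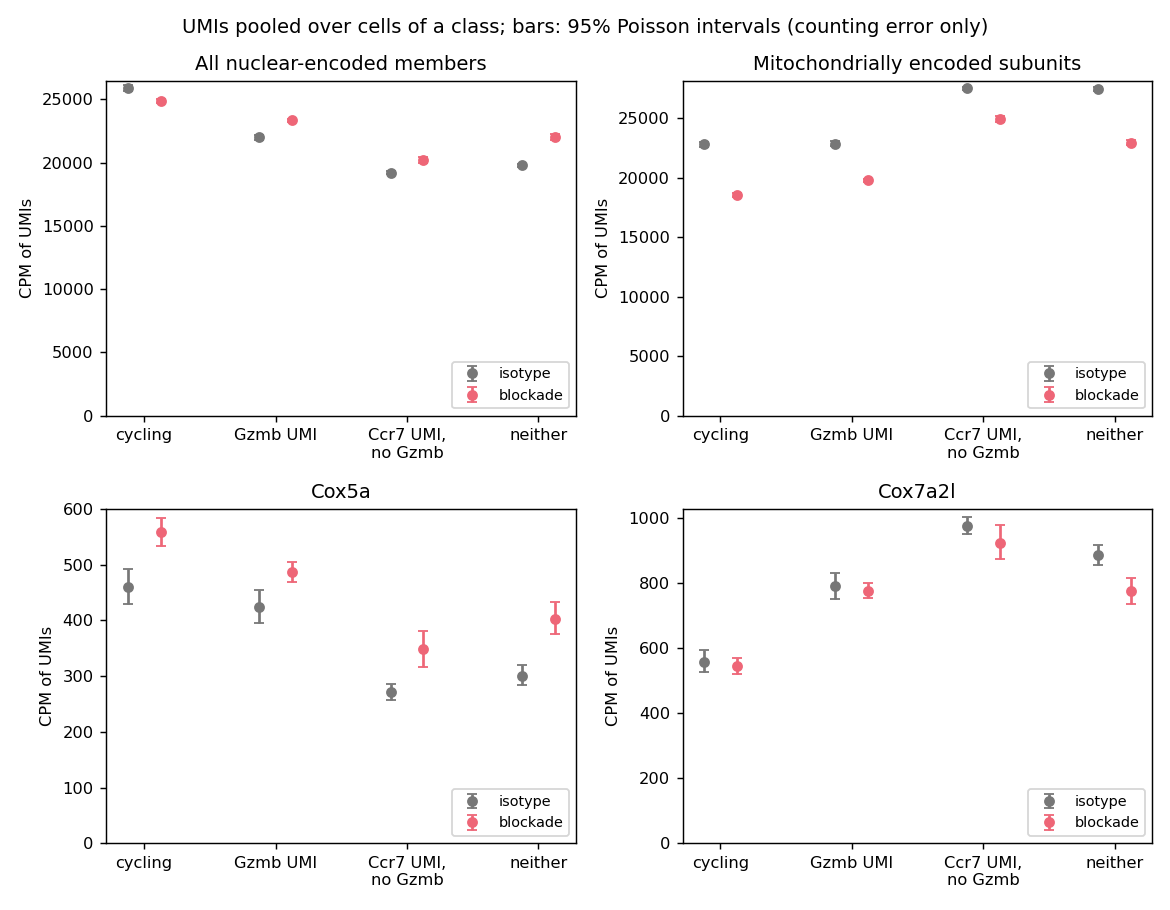
CPM of pooled UMIs (y axis, linear from 0) in 4 classes of single DN cells (x axis) under isotype (grey) and blockade (red), with 95% Poisson intervals as bars, for all nuclear-encoded members, the 13 mitochondrially encoded subunits, Cox5a and Cox7a2l. On the total of all UMIs, Cox5a is higher and the mitochondrially encoded subunits are lower under blockade in each class.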

How the data were processed

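CD8+ T cells were profiled by bulk SMART-Seq2 (26 libraries) and droplet single-cell sequencing (2 libraries). Per the submitters' processing notes, the tools were TopHat, RSEM and DESeq with mm9 for bulk libraries, and Cell Ranger 1.3 with mm10 for single cells; no other versions are given in the sources used here. The bulk tables as deposited by the authors hold expected counts per gene, which were rounded, and a normalized signal whose scale is not given in the sources used here. The single-cell table as deposited by the authors holds UMI counts per cell. Samples were grouped by the labels' titles, cell types and treatments.

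Counts were tested with edgeR 4.0.16 in R 4.3.3 (filterByExpr, TMM, quasi-likelihood F test, all groups of an experiment in one fit), with Benjamini-Hochberg adjustment over all genes tested; SE is the log2 fold change divided by the root of F. DESeq2 1.42.0, no filter, no TMM, no Rn45s, replicate blocks, the compared groups alone and omission of single libraries were alternatives. Omitting memory-like replicate 2 with naive-like replicates 4 and 6, and a block fitted on DN libraries alone, were added after seeing the data. All bulk tests were checked on simulated counts. Same-numbered DN isotype and DN blockade libraries, by title, deviated together (r = 0.122, 0.383 and 0.184 across genes), so their blocked count is given beside the result; no other numbering met that rule. Named genes were, per comparison and complex, up to 3 called members in each direction by smallest p, with fixed isoforms, core subunits and up to 3 called genes of each other list. Single cells were kept from 500 genes upward where mitochondrial UMIs made up 10% or less, and doublets were not removed; members were named there by at least 25% difference, with those of the bulk results. Python 3.11.15, pandas 2.3.3, scipy 1.17.1 and matplotlib 3.10.9 were used. Members and lists were chosen with earlier results of these data known. Intervals cover counting error only.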

Additional observations from a re-analysis of the deposited data

Results flagged for a closer look

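6 values were farther from their group than Dixon's criterion at the 95% level allows. Naive-like replicate 6 was the highest of 6 libraries for Atp5b, at 983.2 CPM where the next held 772.3, for Atp5g2, at 279.5 against 238.9, for Cox6b1, at 99.27 against 74.92, and for Ndufv2, at 93.0 against 80.29. Memory-like replicate 2 was the lowest of 5 for Ndufv1, at 51.22 CPM where the next held 88.71, and for the summed level of complex III, at 844.3 CPM against 1018. The criterion was met in 6 of 66 groups examined (9.09%), where chance gives about 1 in 20.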

How the results depend on the processing

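No named member that was called in the bulk libraries changed direction under the alternatives run for it. In single cells the summed log2 ratio of all members between blockade and isotype was 0.16, and -0.07 with mitochondrial and ribosomal protein genes left out of the total, a change made by the total itself. Between effector-like and naive-like cells the count of members called was 8. This count was 17 in DESeq2, 24 with library totals in place of TMM and 5 with the 2 groups alone. It was 19 without memory-like replicate 2 and naive-like replicates 4 and 6, and 4 to 16 without 1 library. Between memory-like and naive-like cells it was 10, and 22 in DESeq2, 6 with no filter, 21 with library totals and 4 to 12 without 1 library. Between effector-like and memory-like cells it was 1, and 0 with no filter, with library totals and with the 2 groups alone, and 0 to 1 without 1 library. For blockade in DN cells it was 1, and 2 in DESeq2, 0 without Rn45s, 0 with DN libraries alone and 0 to 1 without 1 library.

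DP against DN cells gave 32 calls under isotype (19 to 33 without 1 library) and 46 under blockade (28 to 40). With the replicate number of the titles as a block, the counts were 3 (effector-like and naive-like), 4 (memory-like and naive-like), 0 (effector-like and memory-like) and 0 (DN blockade, also 0 in DN libraries alone). The titles' block gave 29 for DP against DN cells under isotype and 38 under blockade. With the number of the library names as a block, memory-like against naive-like cells gave 2, and DP against DN cells 27 under isotype and 40 under blockade. DP and DN libraries of 1 name number deviated together with r from -0.006 to 0.326 across genes, and for 5 of 6 DN libraries the DP library of the same number was the best match, a hint from the data and not from the design. Every pair's correlation was over 0.1 only for DN isotype and DN blockade libraries numbered by title. The cause of these moves was not tested. Over named genes, 2560 values kept their side of the threshold, 197 lost their call, 30 gained one, and 30 that were not called moved by more than their SE.

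Alternatives with fewer libraries also have fewer degrees of freedom. The main limits are 3 libraries in most groups, 1 single-cell library for each treatment, levels of assembly factors at a few counts per unit of depth, and counts that can be shared with pseudogenes.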
